A study of Mus musculus with 10 samples.

Results

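A set of 10 genes that make, bind and destroy retinoic acid was followed in the cochlea of newborn mice: Stra6, Rdh10, the retinaldehyde dehydrogenases Aldh1a1, Aldh1a2 and Aldh1a3, the enzymes Cyp26a1, Cyp26b1 and Cyp26c1, and the binding proteins Crabp1 and Crabp2. These are 10 of the 54532 genes in the deposited tables. Of the 10, 9 were listed by symbol and Stra6 was named in the rule that chose them. Aldh1a3 was selected on its lower counts in the libraries labelled as knockout in these data, and the others because they belong to the pathway. The tissue was the soft part of the cochlea, the hearing organ of the inner ear, of female mice at postnatal day 1, with both ears of an animal combined into 1 library. All 10 animals carried Esrrg, which encodes estrogen-related receptor gamma, as Esrrgfl/fl, with both copies flanked by loxP sites. The 5 control animals carried nothing further by their labels, and the other 5, the conditional knockout (cKO), also carried Sox10-Cre, a recombinase driven by regulatory sequence of Sox10. Sox10 is active in the otic epithelium, in glia and in melanocytes, so the tissue also holds cells in which the transgene is not expected to act.

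Retinoic acid is made from vitamin A (retinol) inside cells. Stra6 is a membrane receptor that takes up retinol from its carrier in the blood, Rdh10 oxidises retinol to retinaldehyde, and the Aldh1a enzymes oxidise retinaldehyde irreversibly to retinoic acid. The acid binds nuclear receptors of the Rar and Rxr families, which regulate genes; the Crabp proteins bind it in the cytoplasm, and the Cyp26 enzymes, cytochromes P450, oxidise it for removal. In the developing inner ear, retinoic acid signalling takes part in patterning, and in the vestibular sense organs Cyp26b1 keeps its level low in the central zone.

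The 3 retinaldehyde dehydrogenases are shown first, since they do the same chemistry and only Aldh1a3 among them was picked for a difference. Aldh1a1 (ENSMUSG00000053279) lies on GRCm38 chromosome 19 from 20492715 to 20643465, Aldh1a2 (ENSMUSG00000013584) on chromosome 9 from 71215789 to 71296243, and Aldh1a3 (ENSMUSG00000015134) on chromosome 7 from 66390890 to 66427517, on the minus strand. The lines below give the stretch of 60 coding bases in which most bases are identical in all 3 genes, from the GENCODE M21 transcripts, in coding direction and crossing an exon junction in each (exons 11 and 12 of the Aldh1a1 transcript, and exons 8 and 9 of the others). Capitals mark the 44 bases identical in all 3.
Aldh1a1: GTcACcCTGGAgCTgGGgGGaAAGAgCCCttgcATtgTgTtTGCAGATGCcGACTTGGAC
Aldh1a2: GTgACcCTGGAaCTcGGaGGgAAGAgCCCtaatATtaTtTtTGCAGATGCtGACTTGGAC
Aldh1a3: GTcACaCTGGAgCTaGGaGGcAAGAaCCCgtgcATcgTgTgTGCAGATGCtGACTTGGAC
Even this closest stretch differs at scattered bases. Over their whole coding sequences, Aldh1a3 was 68.5% identical to Aldh1a2 and 66.9% identical to Aldh1a1, and Aldh1a1 was 68.7% identical to Aldh1a2. The longest run shared without a mismatch by transcripts of Aldh1a3 and Aldh1a2 was 26 bases, and by those of Aldh1a3 and Aldh1a1 17 bases, against a read length of 150 bp. Aldh1a1 has a closer copy, Aldh1a7, with 91.6% identity and a shared run of 100 bases, which is also shorter than a read. Whether reads were assigned to the wrong one of these genes was not tested. No member's exons overlap those of another annotated gene.

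Before the members, the targeted gene was read in every library. Esrrg (chromosome 1, 187608791 to 188214885) had 2404, 1725, 2099, 2336 and 2414 counts in controls 1 to 5 and 3632, 3359, 3146, 2768 and 3477 counts in cKO 1 to 5, so it was higher in the libraries labelled cKO. Its log2 fold change was 0.62 (SE 0.117; edgeR adjusted p 0.0259), and the adjusted p was above 0.05 in 7 of the 10 fits that each leave out 1 library, with a maximum of 0.0992 without cKO 2. Which exons lie between the loxP sites is not given in the sources used here, and a count over the whole gene does not show the loss of single exons. The counts do not show the deletion that the label names, so the name libraries labelled cKO is used throughout. Every direction below depends on the label. Library totals ran from 33487089 to 41779836 counts. On the first principal component control 2 lay at -29.0, cKO 5 at 17.9 and the other 8 libraries between -4.11 and 5.70. Of 17937 genes tested, 0.619% were called at an edgeR adjusted p under 0.05, made up of 0.546% called lower and 0.0725% called higher. Nothing in the labels says whether the animals were littermates.

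Levels were compared between genes on the deposited FPKM scale, which is per kilobase of exon. In controls the order was Aldh1a2 at 52.6 ± 5.41 FPKM (SD, n = 5 for each), Crabp1 at 39.0 ± 10.6, Crabp2 at 36.7 ± 8.57, Aldh1a3 at 22.3 ± 0.934, Cyp26b1 at 12.2 ± 1.68, Rdh10 at 11.7 ± 1.11, Aldh1a1 at 6.98 ± 0.702 and Stra6 at 3.52 ± 0.312. Cyp26a1 at 0.822 ± 0.556 and Cyp26c1 at 0.245 ± 0.132 were last. Among neighbours in this order, the control ranges of Aldh1a2 and Crabp1, of Crabp1 and Crabp2, of Cyp26b1 and Rdh10, and of Cyp26a1 and Cyp26c1 overlapped. Aldh1a3 stood clear on both sides, between 21.2 and 23.7 FPKM. In the libraries labelled cKO it took the sixth place instead of the fourth, at 9.95 ± 1.90 FPKM, and its range of 7.49 to 12.5 FPKM overlapped those of Aldh1a1, 6.78 to 9.33 FPKM, and Rdh10, 11.7 to 15.4 FPKM. Every other gene moved by at most 1 place.

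**Figure D1:**
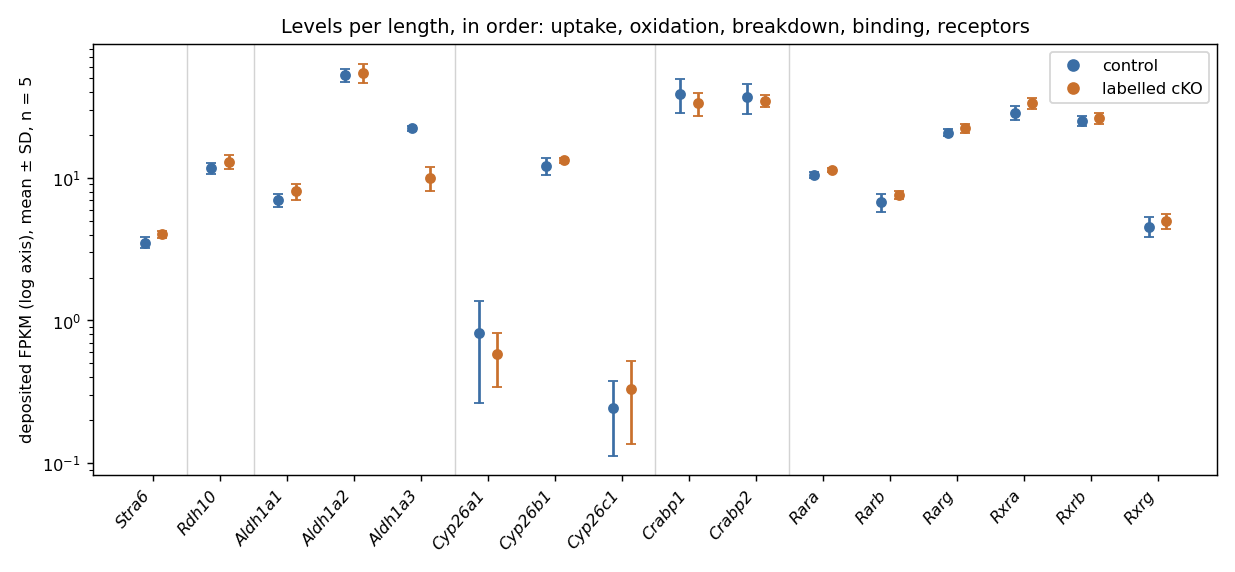
Deposited FPKM (log axis) of the 10 members and the 6 retinoic acid receptors, as mean ± SD of 5 libraries in controls (blue) and in the libraries labelled cKO (orange). Aldh1a3 has separate means, 22.3 and 9.95 FPKM, while the intervals of the other members overlap or lie close together.

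The synthesis enzymes begin with the supply of retinaldehyde. Stra6 (ENSMUSG00000032327; chromosome 9, 58063788 to 58153996) had 21.4, 18.0, 20.8, 20.5 and 22.8 CPM (counts per 1000000 after TMM scaling) in controls 1 to 5 and 24.5, 22.1, 24.4, 22.3 and 25.2 CPM in cKO 1 to 5. Control 5 exceeded cKO 2 and cKO 4, so the groups overlapped. Stra6 had a log2 fold change of 0.20 (SE 0.0881, 95% interval 0.0064 to 0.384; edgeR adjusted p 0.501). Rdh10 (ENSMUSG00000025921; chromosome 1, 16105774 to 16133734) had 56.5, 45.2, 48.4, 46.3 and 49.2 CPM in controls and 51.8, 54.1, 52.8, 48.7 and 65.1 CPM in the libraries labelled cKO. Control 1 and cKO 5 were the highest of their groups, and the groups overlapped. For Rdh10 the log2 fold change was 0.15 (SE 0.0925, 95% interval -0.0486 to 0.348; adjusted p 0.630), and 0.0785 without cKO 5.

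Aldh1a3 separated the genotypes completely, which is the difference it was picked for and is given without a test. Controls 1 to 5 held 4455, 3747, 3781, 3638 and 3865 counts, and the libraries labelled cKO held 1610, 2018, 1973, 1594 and 1286 counts. On the CPM scale these were 103.9, 105.3, 109.6, 100.8 and 98.9 against 48.3, 57.7, 49.1, 40.7 and 35.1. The lowest control lay well above cKO 2, the highest of the other group; over all tested genes, 1.64% separated the genotypes with lower CPM in this group. The means were 103.7 ± 4.17 and 46.2 ± 8.62 CPM, so the fitted level was 44.5% of that in controls, a log2 fold change of -1.17. The controls were close together, with a coefficient of variation of 4.02%, the smallest of the 10 genes in that group, against 18.7% in the libraries labelled cKO. Leaving out each library in turn gave log2 fold changes from -1.26 without cKO 2 to -1.08 without cKO 5. In absolute size and in either direction, 29 of the 111 genes called by edgeR had a larger log2 fold change than Aldh1a3. That count and the values above rest on the difference that chose Aldh1a3 and are descriptions.

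The other two dehydrogenases did not separate the genotypes. Aldh1a1 had 38.6, 33.7, 32.9, 37.7 and 30.6 CPM in controls and 46.2, 36.6, 33.6, 39.8 and 43.9 CPM in the libraries labelled cKO. The 2 highest values belonged to cKO 1 and cKO 5, and cKO 3 lay within the controls. Its log2 fold change was 0.21 (SE 0.102, 95% interval -0.0140 to 0.425; edgeR adjusted p 0.552). Aldh1a2 had 114.3, 120.3, 127.1, 134.9 and 103.4 CPM in controls and 108.3, 134.7, 142.1, 138.1 and 100.1 CPM in the libraries labelled cKO. Its extremes, cKO 5 and cKO 3, were both in the second group. Aldh1a2 had a log2 fold change of 0.05 (SE 0.108; adjusted p 0.888), and the 95% interval of -0.177 to 0.286 leaves out a change of the size seen for Aldh1a3.

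The make-up of the dehydrogenase RNA therefore differed in the terms that contain Aldh1a3. Its share of the summed FPKM of the 3 genes was 27.3 ± 1.72% in controls against 13.7 ± 1.90% (SD, 5 libraries per genotype) in the libraries labelled cKO. The share of Aldh1a2 was 64.2 ± 1.89% and 75 ± 3.35%, and that of Aldh1a1 was 8.54 ± 0.727% and 11.3 ± 2.75%. Per library, the ratio of Aldh1a2 to Aldh1a3 in FPKM was 2.24, 2.33, 2.36, 2.73 and 2.13 in controls and 4.58, 4.76, 5.91, 6.92 and 5.81 in the libraries labelled cKO. The sum of the 3 genes overlapped between the genotypes, with 72.5 to 88.7 FPKM in controls and 59.8 to 79.9 FPKM in the libraries labelled cKO. These shares and ratios contain the value that chose Aldh1a3 and are descriptions. In bulk tissue, fewer cells that contain Aldh1a3 RNA and less of it per cell cannot be told apart.

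**Figure D2:**
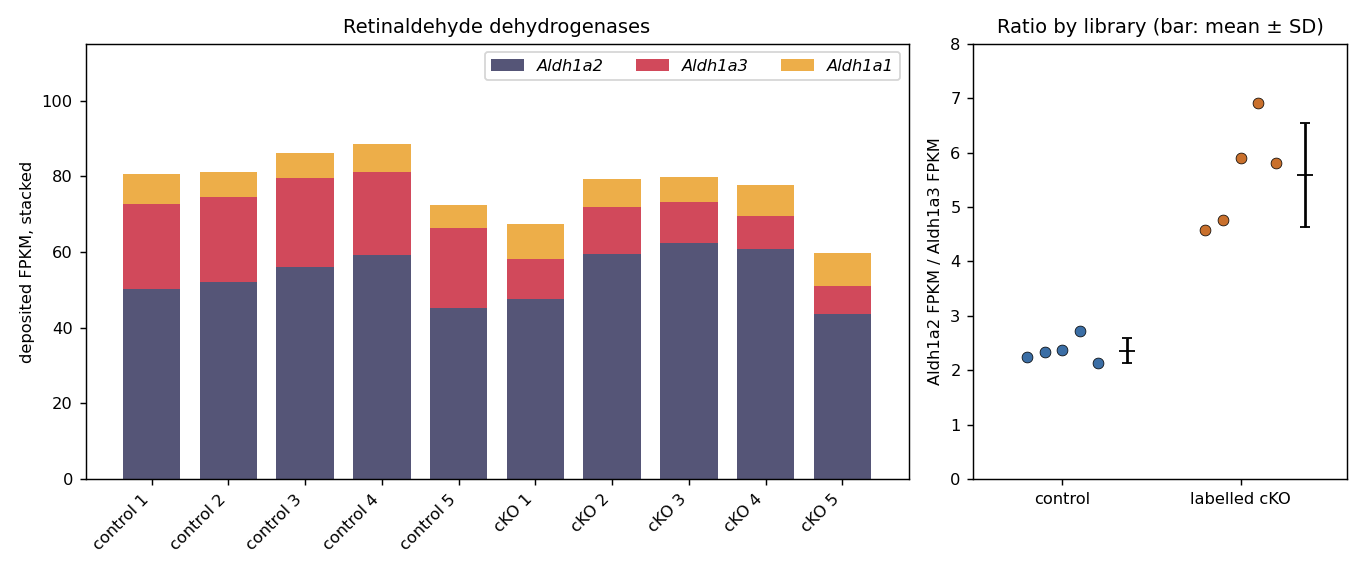
Left, deposited FPKM of Aldh1a2, Aldh1a3 and Aldh1a1 stacked for each library; right, the ratio of Aldh1a2 to Aldh1a3 in each library, with mean ± SD (n = 5). The ratio lies between 2.13 and 2.73 in controls and between 4.58 and 6.92 in the libraries labelled cKO, while the summed heights overlap.

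Markers of several cell types were read beside Aldh1a3. Of the 8 markers of spiral ganglion neurons, 7 had negative fold changes, 5 had an unadjusted p under 0.05 (9.65% of all genes did) and 2 were called lower (Slc17a7 and Elavl4; 0.546% of all genes were), with summed levels of 244.7 to 290.0 FPKM in controls and 141.6 to 302.9 FPKM in the libraries labelled cKO. Of the 8 markers of Schwann cells and satellite glia, 6 had negative fold changes, 4 had an unadjusted p under 0.05 and 0 were called by edgeR (smallest adjusted p 0.0698), with summed levels of 404.9 to 510.2 and 285.1 to 437.5 FPKM. Brain markers were low, at 12.1 to 15.2 and 5.83 to 10.9 FPKM in sum, and these sums did not overlap between the groups. Of 9 tested, 8 had negative fold changes and 4 (Olig1, Olig2, Aqp4 and Cbln1) were called lower by edgeR. Whether this RNA came from brain or from the cochlea was not tested. The 6 vestibular markers summed to 26.5 to 37.3 and 28.5 to 31.7 FPKM. Of the 5 tested, 4 had negative fold changes, 0 had an unadjusted p under 0.05 and 0 were called by edgeR. Hair cell markers summed to 14.4 to 22.3 and 14.0 to 19.5 FPKM, markers of supporting and prosensory cells to 302.4 to 427.7 and 338.8 to 391.1 FPKM, and markers of periotic mesenchyme to 1117 to 1272 and 1186 to 1354 FPKM. In the same order, negative fold changes were found for 5, 4 and 3 of 8 markers. At an unadjusted p under 0.05 by edgeR there were 0, 2 and 1, and 0 were called in each list. No marker of these 7 lists was at 0 counts in all libraries. The part of any of these cell types in the lower level of Aldh1a3 was not tested.

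Breakdown is carried out by the Cyp26 enzymes, and in this tissue nearly all of their RNA was Cyp26b1. Cyp26b1 (ENSMUSG00000063415; chromosome 6, 84571414 to 84593908, minus strand) made up 91.9 ± 4.60% of the summed Cyp26 FPKM in controls and 93.7 ± 2.63% in the libraries labelled cKO. It had 66.3, 52.7, 68.4, 76.7 and 63.7 CPM in controls and 68.6, 68.2, 73.6, 74.7 and 73.0 CPM in the libraries labelled cKO. Control 2 was the lowest library and control 4 the highest, so the controls enclosed the other group. This gave a log2 fold change of 0.13 (SE 0.0911, 95% interval -0.0675 to 0.323; edgeR adjusted p 0.665), which was 0.0485 without control 2.

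Cyp26a1 and Cyp26c1 are neighbours on chromosome 19, at 37697798 to 37701536 and 37685581 to 37693398, and both had few counts. Cyp26a1 (ENSMUSG00000024987) had 64, 49, 26, 22 and 122 counts in controls and 14, 37, 43, 39 and 59 counts in the libraries labelled cKO. Control 5 held by far the most, and cKO 1 the least. Its log2 fold change of -0.51 (SE 0.418, 95% interval -1.41 to 0.383; edgeR adjusted p 0.708) was -0.04 without control 5. Cyp26c1 (ENSMUSG00000062432) had 5, 13, 16, 16 and 30 counts in controls and 10, 15, 23, 17 and 43 counts in the libraries labelled cKO, with replicate 5 highest in each group. Its log2 fold change was 0.44 (SE 0.452, 95% interval -0.529 to 1.41; adjusted p 0.772), and 0.02 without cKO 5. A difference of the size of that of Aldh1a3 lay within the interval of Cyp26a1, and one of the same size in the other direction within that of Cyp26c1.

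Cyp26a1 is known as a direct target of the retinoic acid receptors, which bind repeats of a 6-base half-site. Its promoter is printed because it bears on Cyp26a1 as a readout of the acid, with that of Cyp26b1, the abundant relative, beside it. Both are the 250 bases before the RefSeq start on GRCm38.p6, at chr19:37697558-37697807 (plus strand) and chr6:84593811-84594060 (minus strand); capitals mark a direct repeat of AGTTCA with 5 bases between its copies, of any letters, searched on both strands.
Cyp26a1: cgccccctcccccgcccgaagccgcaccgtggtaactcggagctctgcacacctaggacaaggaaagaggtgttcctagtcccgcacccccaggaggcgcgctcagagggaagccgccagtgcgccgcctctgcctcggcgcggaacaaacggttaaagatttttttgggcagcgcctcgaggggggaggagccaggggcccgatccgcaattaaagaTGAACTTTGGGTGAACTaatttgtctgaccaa
Cyp26b1: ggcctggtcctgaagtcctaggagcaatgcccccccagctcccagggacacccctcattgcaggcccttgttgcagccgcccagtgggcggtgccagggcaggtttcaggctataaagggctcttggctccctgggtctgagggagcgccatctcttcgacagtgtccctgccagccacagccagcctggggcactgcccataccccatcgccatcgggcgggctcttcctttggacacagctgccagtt
The GENCODE M21 genes start at 37697798 (Cyp26a1) and 84593908 (Cyp26b1), so part of each printed stretch lies inside the annotated gene. The repeat lies on the opposite strand in Cyp26a1 and is not in the Cyp26b1 window. It is held by 8 of 32851 promoter windows in the RefSeq table, or 0.0244%. The table matched 7 of the 10 members, with 11 windows of 250 bases before and 50 after a start; Aldh1a3, Rdh10 and Crabp2 were not matched. Of these 11 windows, 0 held the same repeat of AGGTCA (0.00913% of all windows), 0 held the half-site AGGTCA (16.3%), and 0 held TCAAGGTCA, the element that estrogen-related receptors are known to bind (0.423%), on either strand.

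The cytoplasmic binding proteins were abundant. Crabp1 (ENSMUSG00000032291; chromosome 9, 54764748 to 54773110) had 26.1, 46.3, 31.8, 30.0 and 23.8 CPM in controls and 28.5, 27.0, 26.8, 33.1 and 19.3 CPM in the libraries labelled cKO. Crabp2 (ENSMUSG00000004885; chromosome 3, 87948666 to 87953376) had 44.7, 69.9, 46.0, 40.9 and 43.6 CPM in controls and 42.5, 48.6, 48.0, 51.0 and 40.4 CPM in the libraries labelled cKO. Control 2 was the highest library for both genes, and without it the groups still overlapped. Crabp1 had a log2 fold change of -0.23 (SE 0.173, 95% interval -0.599 to 0.144; edgeR adjusted p 0.683), and Crabp2 one of -0.09 (SE 0.134, 95% interval -0.376 to 0.200; adjusted p 0.851). Without control 2 they were -0.06 and 0.06, so the sign for Crabp2 rested on that library. Both genes were at similar levels per length, with a ratio of Crabp1 to Crabp2 of 1.06 ± 0.126 in controls and 0.960 ± 0.128 in the libraries labelled cKO.

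**Figure D3:**
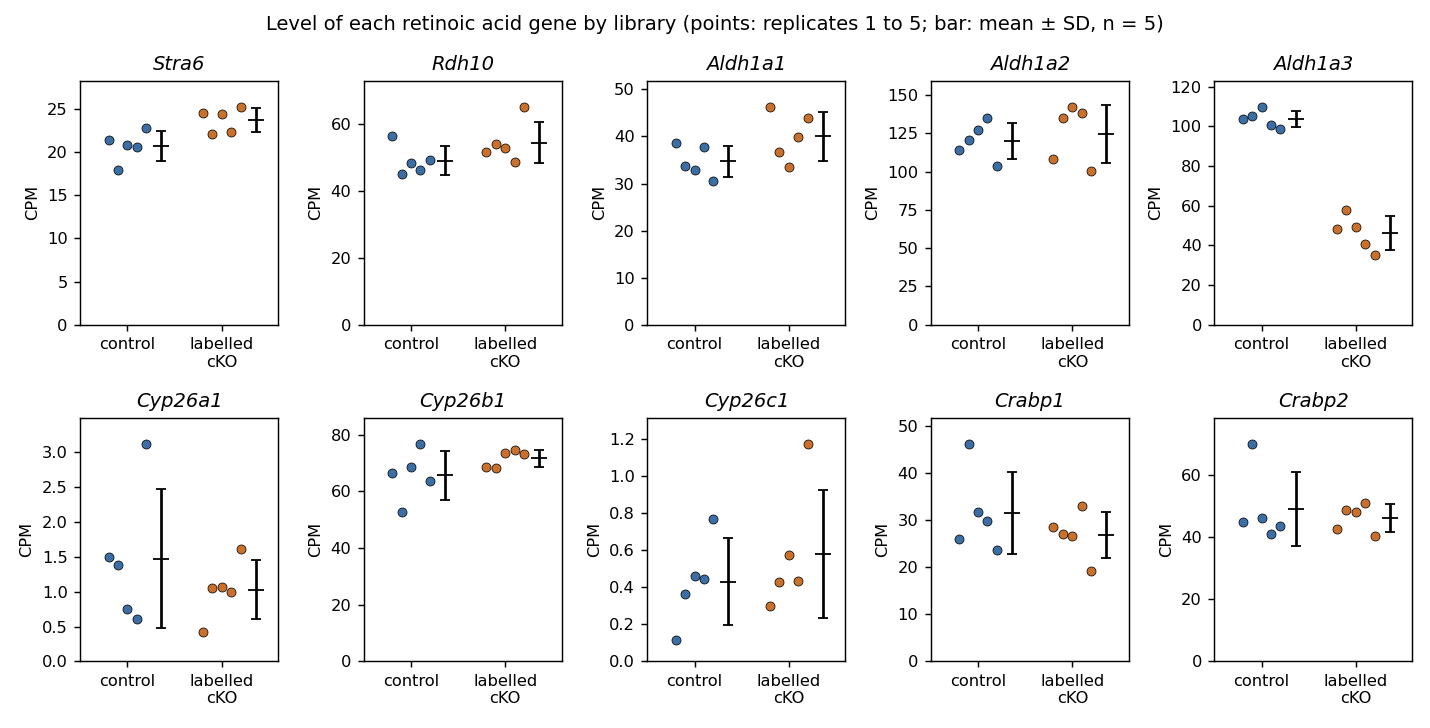
CPM of each member in every library (points, replicates 1 to 5 from left to right) with mean ± SD (n = 5), controls in blue and the libraries labelled cKO in orange; each axis starts at 0. In the Aldh1a3 panel no library of one group overlaps the other; in the other 9 panels the groups overlap.

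Among the 9 members other than Aldh1a3, 0 were called by edgeR at an adjusted p under 0.05, where 0.619% of all tested genes were. DESeq2 and limma-voom also called 0 of the 9. At an unadjusted p under 0.05 there was 1, Stra6, where 9.65% of all genes had such a p. Fold changes were positive for 6 and negative for 3, with a median log2 fold change of 0.13 against -0.01 over all tested genes. Leaving out 1 library lowered this median to 0.0644 without control 2 and to 0.0785 without cKO 5. In CPM, 0 of the 9 separated the genotypes, as 2.84% of all genes did.

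The question of whether other genes of the pathway differed was asked of 58 genes in 6 lists. Of these, 40 were tested, 17 fell below the filter on low counts and 1 (Cyp27c1) matched no annotated symbol; Rdh7, Rdh9 and Hoxb5 had 0 counts in all libraries. By edgeR 0 of the 40 were called, where 0.619% of all tested genes were. At an unadjusted p under 0.05 by edgeR there were 4, where 9.65% of all genes had such a p. Limma-voom also called 0 of the 40, and DESeq2 called 0 of the 45 listed genes to which it gave an adjusted p. The median log2 fold change of the 40 was 0.08, against -0.01 over all tested genes.

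All 6 receptors were present and had small positive fold changes. The Rar proteins bind retinoic acid, and the Rxr proteins are their partners on DNA. Per length, Rxra was the highest at 28.5 ± 3.22 FPKM in controls and 33.4 ± 2.75 in the libraries labelled cKO, and its log2 fold change was 0.23 (SE 0.0883; edgeR adjusted p 0.430). The other receptors had values of 0.11 for Rara, 0.17 for Rarb, 0.09 for Rarg, 0.06 for Rxrb and 0.12 for Rxrg, all at adjusted p of 0.617 or more. Rara, at 46.2 ± 1.73 and 49.99 ± 1.73 CPM, was the only tested gene of the 40 whose genotypes did not overlap, where 1.2% of all genes were separated in this direction. Of the 40 tested genes, 14 overlap exons of another annotated gene. Among them, Rarb and, of the genes named below, Ncor1, Ncoa1, Tgm2 and Cyp2s1 overlap genes on the opposite strand.

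In the list of retinoid transport and storage, 10 of 14 genes were tested, 6 with positive and 4 with negative fold changes. Ttr, which carries retinol-binding protein and thyroid hormone in blood, had a log2 fold change of 0.02 (SE 0.249). Fabp5, a fatty acid-binding protein that can also bind retinoic acid, had 43.9 ± 6.18 and 34.1 ± 4.52 CPM, that is, -0.37 on the log2 scale (SE 0.115; edgeR adjusted p 0.281).

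Enzymes that interconvert retinol and retinaldehyde gave 11 tested genes of 17, 2 with positive and 9 with negative fold changes. Dhrs3, which reduces retinaldehyde back to retinol, had 12.2 FPKM in controls and 12.96 in the libraries labelled cKO, a log2 fold change of 0.08 (SE 0.153). The 3 most abundant genes of the list were Adh5, Dhrs4 and Rdh14, at log2 fold changes of -0.08, -0.21 and -0.01 (edgeR adjusted p 0.597 or more). Of 5 other enzymes that can form or oxidise retinoic acid, 3 were tested. Cyp1b1, a cytochrome P450 of mesenchyme, had 96.9 ± 4.61 and 131.4 ± 42.4 CPM. Its log2 fold change was 0.44 (SE 0.162; edgeR adjusted p 0.392), and 0.24 without cKO 1. Aldh1a7, the close copy of Aldh1a1, had a log2 fold change of -0.09, and Cyp2s1 one of -0.14.

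The 6 receptor coregulators all had positive fold changes between 0.08 and 0.18, among them the corepressor Ncor1 (0.15) and the coactivator Ncoa1 (0.09), with 0 at an unadjusted p under 0.05 by edgeR. Without control 2 the fold changes of Ncor1 and Ncoa1 were -0.01 and -0.07. Of 14 genes known to respond to retinoic acid, 8 were tested, 7 with positive and 1 with negative fold changes, a median of 0.18, 0 called by edgeR and 0 at an unadjusted p under 0.05. Dhrs3 was among the most abundant of these, and Tgm2, a transglutaminase, had a log2 fold change of 0.02 (SE 0.112). The Hox genes of this list, which retinoic acid induces in the hindbrain and trunk, were all below the filter.

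**Figure D4:**
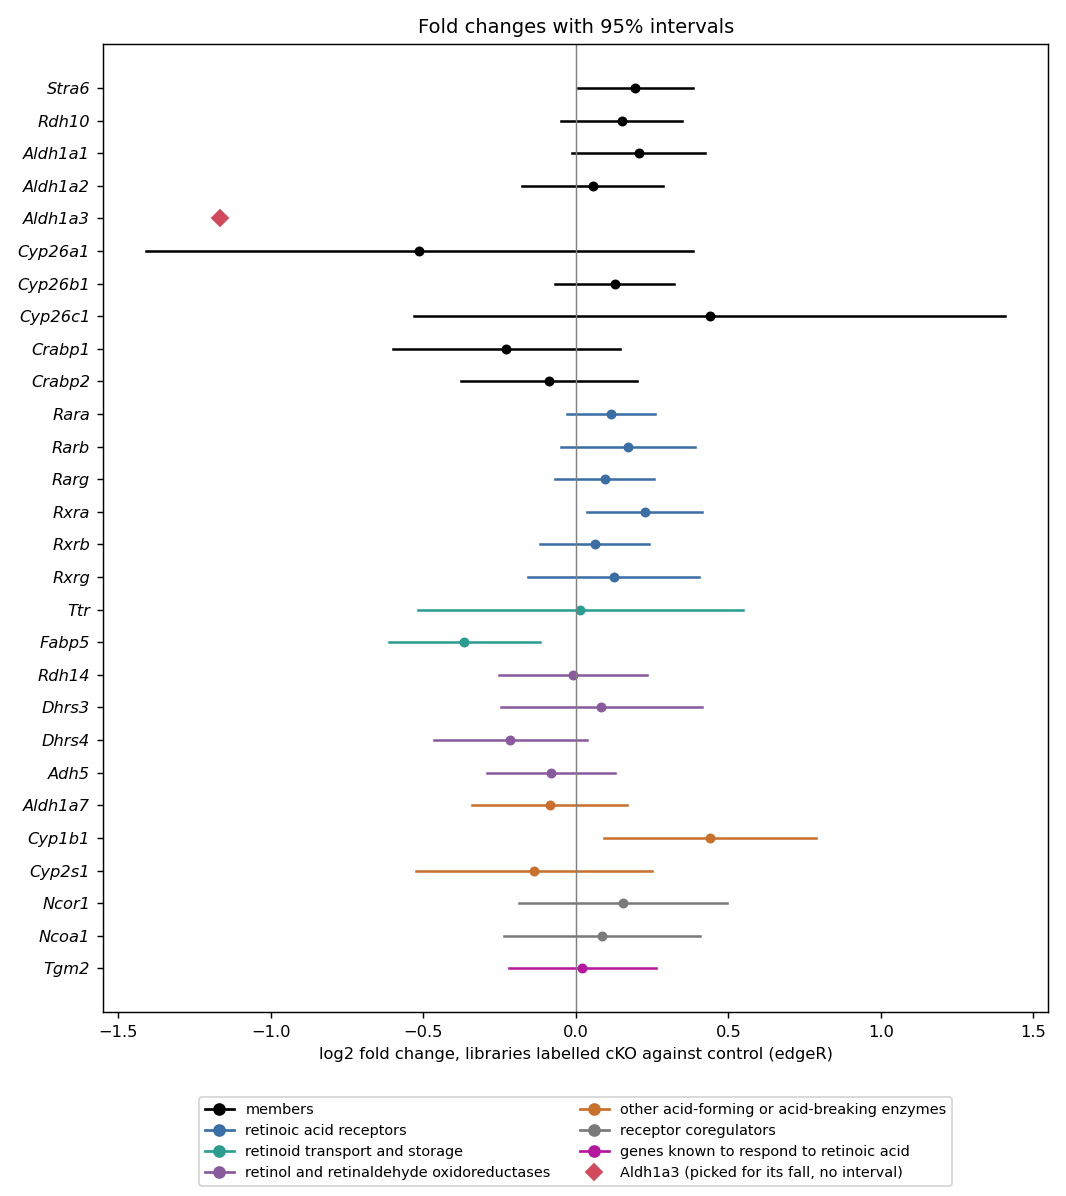
Log2 fold change of the libraries labelled cKO against controls (edgeR, x axis) for the 10 members and the genes named from the wider lists, with 95% intervals as bars. Aldh1a3 is drawn without an interval, as it was picked for its difference, and lies at -1.17; the other members lie between -0.51 and 0.44.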

How the data were processed

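Polyadenylated RNA of 10 cochlear samples was sequenced as paired reads of 150 bp, per the labels' protocols. The authors deposited whole-number counts per Ensembl gene and FPKM values per gene (fragments per kilobase of exon and 1000000 fragments). STAR 2.5, HTSeq 0.61, DESeq2 2 and mm10 are named in the submitters' processing notes; use of strand is not given in the sources used here. Gene lengths implied by counts and FPKM were scaled by a factor common to all genes. They then matched the merged exons of GENCODE M21 to 0.1% in 95.3% of 13928 well-covered genes (minimum 50 counts per library). Symbols and positions therefore come from GENCODE M21. Counts were filtered with filterByExpr (minimum 10), TMM-scaled and tested with edgeR 4.0.16 (quasi-likelihood, robust, genotype as the only term), with Benjamini-Hochberg adjustment over 17937 genes; limma 3.58.1 and DESeq2 1.42.0 served as alternatives. SE and intervals derive from the F statistic. The fit was tested on simulated data. P-values measure the spread between 5 animals per genotype. Members and lists were chosen with earlier results of these data known. Named genes were all members, Esrrg, the 6 receptors, the 3 genes with the highest mean FPKM in each other list, any list gene at an adjusted p under 0.05, and the 5 genes most like Aldh1a3; Stra6, Rara and the called markers are named as counts of few. Some genes that this rule names are not reported here. Of the fixed marker lists, those of marginal cells, melanocytes, cartilage, meninges, blood, macrophages and skeletal muscle had 0 calls by edgeR, with 3 genes at an unadjusted p under 0.05. Fold changes were positive for 6 of 6 markers of marginal cells, 6 of 6 of melanocytes, 4 of 4 of macrophages, 4 of 5 of meninges and 3 of 6 of cartilage. They were negative for 4 of 4 markers of blood and for the 1 tested marker of skeletal muscle.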

Additional observations from a re-analysis of the deposited data

Results flagged for a closer look

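Of the 20 groups of 5 libraries (10 genes in each genotype), Dixon's test at the 95% level picked out 1, and chance alone picks out about 1 in 20. It was Crabp2 in control 2, at 69.95 CPM where the other controls had 40.9 to 46.0 CPM. On the first principal component control 2 lay at -29.0 and cKO 5 at 17.9, with the other 8 libraries between -4.11 and 5.70.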

How the results depend on the processing

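The counts of called genes, 0 of 9 members other than Aldh1a3 and 0 of 40 genes in the wider lists, stayed at 0 under all 20 alternatives, those with 1 library left out included (0 to 0). With the replicate number as a block they were also 0 and 0. Among the 29 genes followed singly the block ended the call of Esrrg alone (edgeR adjusted p 0.0562, log2 fold change 0.61). Its call was also lost with limma on the FPKM values (adjusted p 0.0504 and 0.0501). Same-numbered libraries correlated at 0.0211 to 0.179 in their deviations, and 6 of 10 libraries correlated best with their own number. For numbers 2, 3 and 5 the match held in both directions. The labels do not say what the numbers stand for, so they were not taken to pair the animals, and a shared litter or batch was not tested. The log2 fold change of Aldh1a3 lay between -1.26 and -1.08 under all alternatives. Among these 29 genes, 22 of 550 values took the opposite sign, in 8 genes. With limma-voom these were Crabp2 (0.0691), Ncoa1 (-0.0475) and Rdh14 (0.0888). Rdh14 was also 0.0050 on log2(FPKM + 1), 0.0056 on log2(FPKM + 0.1) and 0.0016 with the block. With 1 library left out the values ran from -0.147 to 0.0644 for Crabp2, -0.0101 to 0.205 for Ncor1, -0.0694 to 0.144 for Ncoa1, -0.124 to 0.0085 for Adh5 and -0.0549 to 0.0868 for Rdh14, with control 2 as the library whose removal gave the opposite-signed end of each. They ran from -0.0792 (without cKO 3) to 0.0671 for Tgm2, from -0.0467 (without cKO 1) to 0.184 for Dhrs3, and from -0.127 (without cKO 1) to 0.326 for Ttr. The cause was not tested. Cyp26b1 was 0.0534 with limma-voom, and the median over the 9 members was 0.0691. Cyp26c1 gave no value with a minimum of 1 CPM in 5 libraries. Over all genes, the share called, 0.619% with edgeR, was 1.43% with DESeq2, 1.94% with limma-voom, 1.09% without control 2, 0.563% with the block and as low as 0.287% without control 3.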

Other observations

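Genes that varied like Aldh1a3 within genotypes were looked for among 15197 protein-coding genes, by the Pearson correlation of deviations from the genotype means over the 10 libraries. The 5 most like it were Cacna2d3, a calcium channel subunit (r = 0.946), Lrrn2 (0.923), Rab6a, a trafficking GTPase (0.890), Zfp830 (0.889) and Sptlc2, a subunit of serine palmitoyltransferase (0.886). Without control 2 these were 0.947, 0.926, 0.898, 0.889 and 0.922. The values are the highest of many over few libraries and are given as a description. Differences between whole libraries were not separated from these correlations.

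Among the members themselves, Crabp1 and Crabp2 varied together within genotypes (r = 0.833 over 10 libraries, 0.623 without control 2). Stra6 varied against both, with r = -0.872 for Crabp1 and -0.835 for Crabp2, and -0.734 and -0.591 without control 2. Rdh10 varied against Crabp1, with r = -0.785, and -0.839 without control 2. These pairs were picked out of 45 after their values were seen. Differences between whole libraries were not separated from these correlations either.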
